A study of Mus musculus with 20 samples.

Results

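De novo lipogenesis, the making of fatty acids from carbohydrate, was followed in the epididymal fat of obese mice through 10 listed genes. They are the enzymes Acly, Acss2, Acaca, Fasn, Me1, Elovl6, Scd1 and Scd2 and the transcription factors Srebf1 and Mlxipl. They were picked by gene symbol, and 8 of the 10 were matched to a probe set, each of them to 1, among 19505 genes with a probe set of 1 symbol and 22206 probe sets in all. Scd2 and Srebf1 had no probe set under their symbol in the annotation used, and their signals were not analysed here. Expression arrays were run on whole fat pads of 20 male C57BL/6 mice, 1 array per mouse. The 10 cre mice were Tnf flox/flox and LyzM-cre +/-, in which Cre is driven by the lysozyme M promoter and so is active in macrophages and other myeloid cells. The 10 wt mice were littermates that were also Tnf flox/flox but LyzM-cre -/-, so both genotypes carried the floxed alleles, and no mouse with Cre and an unfloxed Tnf gene was part of the comparison. All mice ate chow to 10 weeks of age and then a purified diet with 40% of calories from fat for 18 weeks, and fat was taken at 28 weeks. The titles place 5 mice of each genotype in batch 1 and 5 in batch 2.

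In fat cells glucose carbon reaches the cytosol as citrate, which ATP citrate lyase (Acly) splits to acetyl-CoA, while acetyl-CoA synthetase (Acss2) makes acetyl-CoA from acetate. Acetyl-CoA carboxylase 1 (Acaca) turns acetyl-CoA into malonyl-CoA, and fatty acid synthase (Fasn) builds palmitate from it with NADPH, part of which malic enzyme (Me1) supplies. Elovl6 lengthens palmitate and Scd1 places the first double bond. SREBP-1c, encoded by Srebf1, and ChREBP, encoded by Mlxipl, are the transcription factors known for driving these genes after feeding, and in fat ChREBP is known to respond to glucose uptake.

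The cre mean lay above the wt mean for all 8 measured members, by 0.25 to 0.86 on the log2 scale, and none passed adjustment over all probe sets. Acaca, Me1 and Acss2 showed the clearest differences, 1.81-fold, 1.74-fold and 1.61-fold. The same 4 wt mice, replicates 5, 6, 9 and 10, lay below every cre mouse in Acaca, Fasn, Me1 and Acss2, and wt replicate 7 did so in Acss2. These 4 mice were picked by these same members, and the same count over all probe sets is not given here. In 2 of these 4 mice, replicates 5 and 6, the fat cell marker Adipoq was also below that of every cre mouse. Replicate 6 also held strong signals of seminal vesicle genes, given further on. With replicates 5 and 6 left out, the median difference of the members was 0.36 in place of 0.58.

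Promoter sequences are shown for 4 members, the 3 whose signals followed each other most closely between mice (Fasn, Me1 and Acss2, described further on) and the regulator Mlxipl with 2 annotated starts. Me1 too has more than 1 start in the table, and its upstream one is shown. Each is the 250 bases before a RefSeq transcription start, read 5′ to 3′ on the gene's strand (assembly GRCm38.p6), and capitals mark matches to 1 of 4 motifs on either strand.
Fasn, chr11:120824548-120824797, minus strand: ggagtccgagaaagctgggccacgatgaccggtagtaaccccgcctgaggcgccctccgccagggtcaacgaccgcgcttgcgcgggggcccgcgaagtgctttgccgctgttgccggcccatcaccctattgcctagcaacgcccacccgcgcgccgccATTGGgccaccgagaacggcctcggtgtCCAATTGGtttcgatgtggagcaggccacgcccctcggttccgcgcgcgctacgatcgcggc
Me1, chr9:86695915-86696164, minus strand: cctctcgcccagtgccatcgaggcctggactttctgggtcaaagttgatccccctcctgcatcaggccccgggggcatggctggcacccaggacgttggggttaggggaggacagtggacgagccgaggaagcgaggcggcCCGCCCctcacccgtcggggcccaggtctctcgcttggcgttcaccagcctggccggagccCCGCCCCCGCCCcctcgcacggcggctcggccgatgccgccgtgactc
Acss2, chr2:155517793-155518042, plus strand: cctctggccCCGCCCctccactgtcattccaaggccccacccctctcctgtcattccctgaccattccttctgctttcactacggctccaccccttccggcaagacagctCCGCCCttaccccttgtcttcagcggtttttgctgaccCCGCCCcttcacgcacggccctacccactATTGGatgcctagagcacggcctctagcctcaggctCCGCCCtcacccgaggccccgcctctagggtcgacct
Mlxipl upstream start, chr5:135089640-135089889, plus strand: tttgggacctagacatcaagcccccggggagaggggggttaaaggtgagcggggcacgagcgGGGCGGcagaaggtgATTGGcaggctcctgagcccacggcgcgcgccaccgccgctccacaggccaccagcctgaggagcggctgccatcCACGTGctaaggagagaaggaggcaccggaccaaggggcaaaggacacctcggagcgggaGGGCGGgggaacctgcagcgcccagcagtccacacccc
Mlxipl downstream start, chr5:135106641-135106890, plus strand: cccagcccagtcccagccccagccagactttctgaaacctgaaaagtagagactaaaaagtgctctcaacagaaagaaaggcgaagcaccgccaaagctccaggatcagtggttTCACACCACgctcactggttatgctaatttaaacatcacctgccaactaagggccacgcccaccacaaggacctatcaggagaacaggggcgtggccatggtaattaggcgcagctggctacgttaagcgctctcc
The motifs were the E-box CACGTG, bound by factors such as ChREBP with Mlx, USF and SREBP, the sterol element TCACNCCAC of SREBP, and the boxes CCAAT of NF-Y and GGGCGG of Sp1, which are known to act beside SREBP. Of 32851 mouse promoter windows of this length, 6.02% held the E-box, 1.05% the sterol element, 33.8% CCAAT and 32.7% GGGCGG. Fasn held 3 CCAAT matches, of which those at -62 and -59 overlap in CCAATTGG. The printed Me1 window held 3 GGGCGG matches, while that of another annotated Me1 start, chr9:86687278-86687527, held 1 CCAAT and 0 GGGCGG, and Acss2 held 4 of them beside 1 CCAAT. The E-box occurred in 1 of the 12 windows of 8 members with a promoter in the table, at -98 of the upstream Mlxipl start. The sterol element occurred in 1, at -136 of the downstream start, which lies 17001 bases away. Those 8 members included Srebf1 but not Scd1 and Scd2, for which the table held no promoter. In mouse fat Mlxipl is known to be read as a longer and a shorter form from separate first exons. The array had a single Mlxipl probe set, so its signal does not tell the starts apart. The single Acaca window, before base 84195438 of chr11, lay inside the gene, whose annotated span begins at 84129635. The bases before that beginning were not searched. A match shows only that the letters are present.

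The values were log2 signals normalised by the authors, and a difference is cre minus wt, fitted with batch as a term in limma. Signals of different probe sets are not comparable with each other. Array medians lay between 6.49 and 6.58, and all arrays held distinct values. Tnf, the targeted gene, was lower in cre mice (log2 difference -1.99, limma adjusted p = 0.000822), and it was the single probe set that passed adjustment. Its probe set is known here by gene only, so whether it lies in the deleted part was not checked. Adipoq, which encodes adiponectin of fat cells, averaged 18.73 ± 0.69 (SD, n = 10) among wt mice, and 19.12 ± 0.36 (SD, n = 10) among cre mice. Signals of other tissues stood out in 3 mice. Their list means lay more than 1 log2 unit above the next highest mouse of the genotype. The wt replicate 6 had a mean of 16.95 over 6 seminal vesicle genes, against at most 5.98 in other wt mice, wt replicate 4 had the highest liver and pancreas lists of its genotype, and cre replicate 3 had a seminal vesicle mean of 7.22, against at most 5.59 in other cre mice. The numbers 5, 6, 9 and 10 below are replicate numbers of wt mice.

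**Figure D1:**
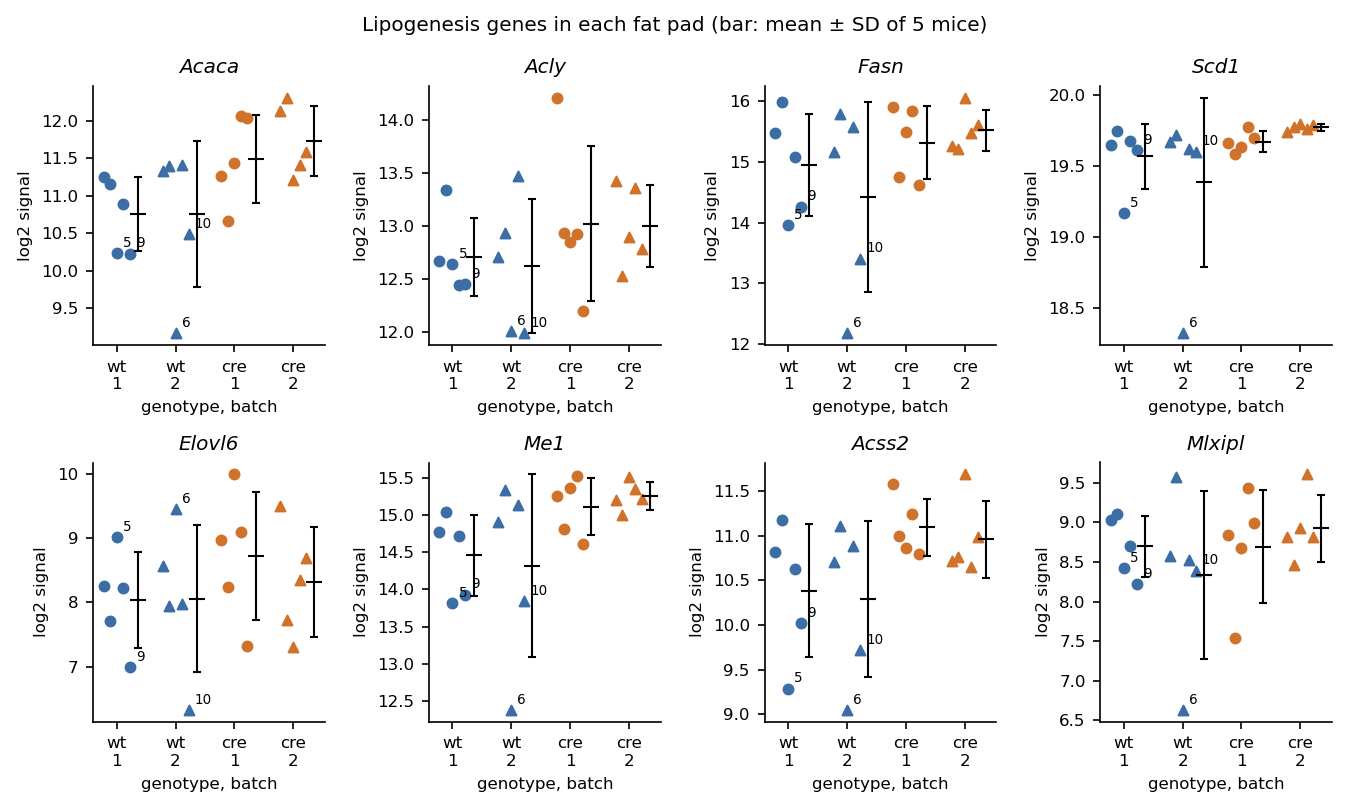
Log2 signal of each of the 8 measured lipogenesis genes (y axis) in each fat pad, by genotype and batch (x axis; circles batch 1, triangles batch 2), with the mean ± SD of 5 mice as a bar and the wt replicates 5, 6, 9 and 10 numbered. In Acaca, Fasn, Me1 and Acss2 these 4 wt mice, picked by these same genes, sit below all cre mice. Elovl6 is highest among wt mice in replicate 6.

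Acaca, the enzyme that commits acetyl-CoA to fatty acid synthesis, had signals from 9.17 through a median of 11.03 to 11.41 in wt mice. In cre mice Acaca ran from 10.66 through a median of 11.52 to 12.31. The groups overlapped, but 7 of 10 cre mice lay above the highest wt mouse and 4 wt mice below the lowest cre mouse. Acaca averaged 10.76 ± 0.73 (SD, n = 10) among wt mice, against 11.61 ± 0.51 (SD, n = 10) among cre mice. The Acaca difference was 0.86 (SE 0.27, 95% interval 0.31 to 1.41). Limma gave an unadjusted p of 0.00387 and an adjusted p of 0.770, and an exact two-sided permutation of genotype within batches gave p = 0.00539. It was 0.74 in batch 1 and 0.98 in batch 2.

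Me1, the cytosolic malic enzyme that yields NADPH, ran from 12.38 through 14.75 to 15.34 in wt mice and from 14.62 through 15.23 to 15.52 in cre mice. All 10 cre mice lay above the wt mean, and 4 lay above the highest wt mouse. The spread was wider in wt (14.39 ± 0.90, SD, n = 10) than in cre mice (15.18 ± 0.29, SD, n = 10). The Me1 difference was 0.80 (SE 0.28, limma unadjusted p = 0.00992, adjusted p = 0.770; exact permutation p = 0.00806), with 0.66 in batch 1 and 0.94 in batch 2.

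Acss2, which feeds acetate into the same acetyl-CoA pool, ran from 9.05 through 10.66 to 11.18 in wt mice and from 10.65 through 10.92 to 11.69 in cre mice. Here 5 wt mice lay below the lowest cre mouse, the same 4 and replicate 7. The Acss2 difference was 0.69 (SE 0.25, limma unadjusted p = 0.0129, adjusted p = 0.770; exact permutation p = 0.0218). It was nearly the same in both batches, 0.71 and 0.67.

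Fasn, the synthase that makes palmitate, ran from 12.18 through 15.12 to 15.98 in wt mice and from 14.62 through 15.48 to 16.05 in cre mice. The upper ends of the groups were alike, and the 4 lowest Fasn signals, 12.18, 13.41, 13.96 and 14.26, were all from wt mice. The Fasn difference was 0.73 (SE 0.38, 95% interval -0.06 to 1.52, limma unadjusted p = 0.0676, adjusted p = 0.801; exact permutation p = 0.103). It was 0.37 in batch 1 and 1.10 in batch 2.

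Acly, the citrate-splitting enzyme, ran from 11.99 through 12.65 to 13.47 in wt mice and from 12.19 through 12.91 to 14.21 in cre mice. The groups overlapped over most of their range, and the Acly difference was 0.35 (SE 0.23, limma unadjusted p = 0.139, adjusted p = 0.826). One mouse, cre replicate 1, held the highest Acly signal, and without it the difference was 0.21.

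Scd1, the desaturase, ran from 18.32 through 19.64 to 19.75 in wt mice and from 19.59 through 19.75 to 19.80 in cre mice. Scd1 signals lay close to the brightest signals of the arrays, whose maxima were 19.81 to 19.93, so that differences at its upper end may be compressed. The wt spread (SD 0.44) came from replicates 5 and 6, at 19.17 and 18.32, while the other 8 wt mice had an SD of 0.05. The Scd1 difference was 0.25 (SE 0.15, limma unadjusted p = 0.115, adjusted p = 0.818), and the exact permutation p was 0.0134. Without wt replicates 5 and 6 the Scd1 difference was 0.06 (SE 0.09).

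Elovl6, the elongase that acts on palmitate, ran from 6.32 through 8.11 to 9.46 in wt mice and from 7.30 through 8.52 to 10.00 in cre mice. The order of the wt mice was different from that of the other enzymes: replicate 6, lowest in Fasn and Me1, was the highest wt mouse in Elovl6, while replicates 9 and 10 were low again, at 6.99 and 6.32. The Elovl6 difference was 0.47 (SE 0.37, limma unadjusted p = 0.222, adjusted p = 0.848), with 0.68 in batch 1 and 0.26 in batch 2. It was 0.28 without wt replicate 10 and 0.31 without cre replicate 5. It was larger without wt replicates 5 and 6, at 0.77 (SE 0.36, limma unadjusted p = 0.0430, adjusted p = 0.920).

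Mlxipl, the gene of ChREBP, ran from 6.63 through 8.55 to 9.57 in wt mice and from 7.53 through 8.83 to 9.60 in cre mice. The only mouse below all cre mice was wt replicate 6. The Mlxipl difference was 0.29 (SE 0.28, limma unadjusted p = 0.316, adjusted p = 0.878), with -0.0014 in batch 1 and 0.59 in batch 2.

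Counted together, 8 of 8 members were higher in cre mice, where 50.7% of all probe sets were, and their median difference was 0.58 against 0.0034 over all probe sets. Adipocyte markers lay the same way, with 11 of 12 higher in cre mice, a median difference of 0.37 and 0 with an unadjusted p under 0.05. An unadjusted p under 0.05 with a higher cre level was met by 3 of 8, Acaca, Me1 and Acss2, and by 3.24% of all probe sets. Most members varied together between the same mice, as described further on, so the 8 are not independent observations in such counts. The submitters' design text selects genes by a fold of 1.5 or more together with an unadjusted p under 0.05. The same 3 members met it, and 0.383% of probe sets did in this direction. After adjustment 0 of 8 members passed, and 0.0045% of probe sets did, which is Tnf alone. The difference between batches was tested as an interaction in limma: 0 of 8 members had an unadjusted p under 0.05, where 7.41% of probe sets had one, and their adjusted p ranged from 0.845 to 0.992. After adjustment 0% of probe sets passed the interaction. Without wt replicate 6 the Mlxipl difference was 0.07, that of Fasn 0.45 and that of Scd1 0.11, and 1 member in place of 3 passed the study's selection.

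The members were next read at equal Adipoq, by adding each array's Adipoq signal to the model, since a whole fat pad holds other cells than fat cells. In such bulk tissue fewer fat cells and less RNA per fat cell cannot be told apart. Adipoq signals reached 19.57, close to the array maxima of 19.81 to 19.93, so that differences at its upper end may be compressed. At equal Adipoq the median difference of the 8 members was 0.37, where it was -0.0025 over all probe sets. The Acaca difference was 0.57 (SE 0.23, limma unadjusted p = 0.0204, adjusted p = 0.949), and it was the only member with an unadjusted p under 0.05, which 2.21% of probe sets met with a higher cre level. The Me1 difference at equal Adipoq was 0.47 (SE 0.23, unadjusted p = 0.0546 in limma) and that of Acss2 0.42 (SE 0.22, unadjusted p = 0.0713 in limma). Fasn came to 0.33 (SE 0.33), Acly to 0.33 (SE 0.24) and Scd1 to 0.07 (SE 0.12). Elovl6 moved the other way, to 0.73 (SE 0.37, unadjusted p = 0.0637 in limma). Mlxipl lay at -0.03 (SE 0.24, 95% interval -0.52 to 0.47), so 7 of 8 members were higher in cre mice, where 49.5% of all probe sets were. No member passed adjustment at equal Adipoq, and 0.0045% of probe sets did. These values leaned on single mice: without wt replicate 10 the median was 0.22, and Fasn came to 0.01, Me1 to 0.28, Acss2 to 0.24 and Acly to 0.20. Without cre replicate 1 Acly came to 0.15, and without cre replicate 4 Scd1 came to 0.03 and without cre replicate 2 to 0.04. By batch, Fasn at equal Adipoq was 0.03 in batch 1 and 0.67 in batch 2, and Scd1 was -0.02 and 0.18.

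Leaving out wt replicates 5 and 6, a choice made after their low adipocyte markers were seen, gave nearly the same picture without a covariate. Acaca differed by 0.59 (SE 0.21, limma unadjusted p = 0.0115, adjusted p = 0.920) over 8 wt and 10 cre mice. Me1 differed by 0.47 (SE 0.19, limma unadjusted p = 0.0238, adjusted p = 0.920) and Acss2 by 0.40 (SE 0.20, limma unadjusted p = 0.0625, adjusted p = 0.920). Fasn differed by 0.33 (SE 0.29), Acly by 0.26 (SE 0.24) and Mlxipl by 0.04 (SE 0.23). With Elovl6, 3 of 8 members had an unadjusted p under 0.05 and a higher cre level, where 2.48% of probe sets did. Without the 3 mice flagged for signals of other tissues, wt replicates 4 and 6 and cre replicate 3, the median difference of the members was 0.64. Only the highest mouse of each genotype could be flagged for a list. The liver list means were 12.62 and 12.68 in cre replicates 4 and 10 and 11.48 in wt replicate 9, and these mice stayed in.

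**Figure D2:**
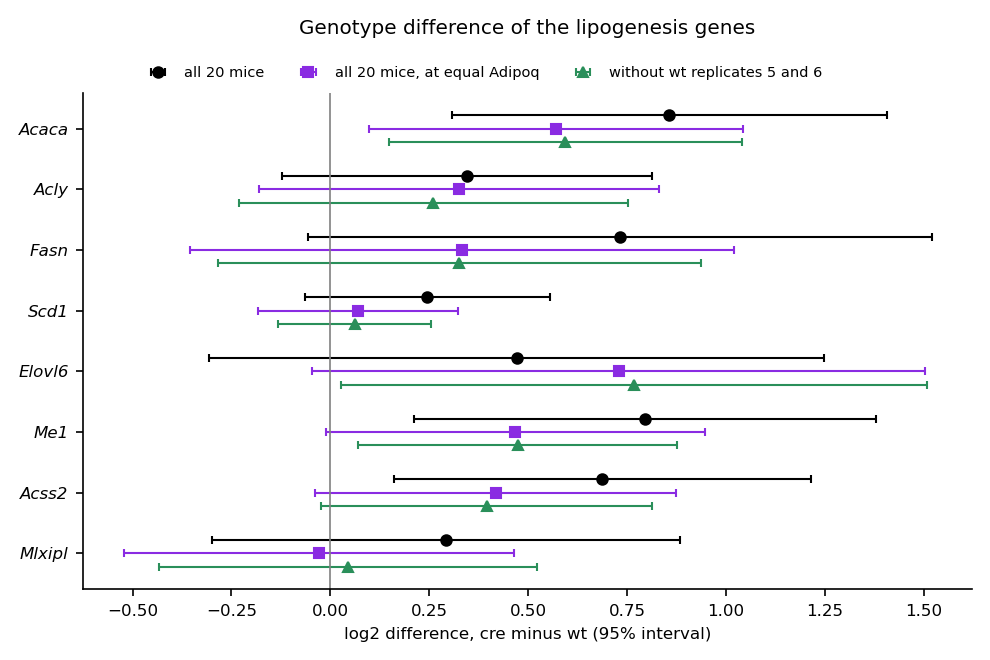
Log2 difference, cre minus wt, of each measured lipogenesis gene (x axis) with its 95% interval, over all 20 mice, over all 20 mice at equal Adipoq, and without wt replicates 5 and 6. The intervals of Acaca stay above 0 in all 3 settings, and those of Fasn, Acly, Scd1 and Mlxipl span 0 in all 3.

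Most members followed Adipoq from mouse to mouse. In the model with genotype, batch and Adipoq, a slope above 0 passed adjustment over all probe sets for 6 of 8 members, where it passed for 3.83% of probe sets. The slopes, in log2 units per log2 unit of Adipoq, were 1.01 (SE 0.30) for Fasn, 0.83 (SE 0.21) for Me1, 0.81 (SE 0.21) for Mlxipl, 0.73 (SE 0.20) for Acaca, 0.68 (SE 0.20) for Acss2 and 0.45 (SE 0.11) for Scd1, with limma adjusted p from 0.0142 to 0.0449. Acly had a slope of 0.05 (SE 0.22) and Elovl6 one of -0.65 (SE 0.33, limma adjusted p = 0.302). Without wt replicates 5 and 6, 0 of 8 members passed, with limma adjusted p from 0.260 to 0.973, while the slope passed for 1.54% of probe sets. The slopes were then 0.20 (SE 0.51) for Fasn, 0.25 (SE 0.33) for Me1, 0.37 (SE 0.36) for Acaca, 0.04 (SE 0.35) for Acss2 and 0.05 (SE 0.16) for Scd1. Acly then had a slope of -0.55 (SE 0.39) and Elovl6 one of 0.13 (SE 0.62), so the Elovl6 slope below 0 rested on those 2 mice. The Mlxipl slope was as large as before, 0.79 (SE 0.36, limma unadjusted p = 0.0395, adjusted p = 0.260).

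Expressed as correlations of deviations from the mean of each genotype and batch, Scd1 against Adipoq gave Pearson's r = 0.83 (permutation p = 0.0034) and Spearman's rho = 0.70 (permutation p = 0.00321) over 20 mice. Fasn gave r = 0.64 (permutation p = 0.0195) but rho = 0.33 (permutation p = 0.228). Acly gave r = 0.06 (permutation p = 0.845) and rho = -0.15 (permutation p = 0.570). The 8 relations were computed in 1 family. By r, the permutation p adjusted over them was 0.0244 for Scd1, 0.0296 for Fasn and 0.845 for Acly. By rho, it was 0.0257, 0.304 and 0.570. How many of the 8 passed is given with the alternatives. Without the 2 mice farthest from the median of Adipoq, again wt replicates 5 and 6, r was 0.40 for Scd1, 0.12 for Fasn and -0.34 for Acly, so the pooled values of Scd1 and Fasn rested on those mice. Within batches Scd1 gave r = 0.87 and 0.89 and Fasn 0.56 and 0.70. Batch 1 held wt replicate 5 and batch 2 held wt replicate 6, so these values were not free of those mice. Within genotypes Scd1 gave r = 0.90 in wt and 0.66 in cre mice. Fasn gave r = 0.70 and rho = 0.25 in wt mice, against r = 0.31 and rho = 0.15 in cre mice.

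**Figure D3:**
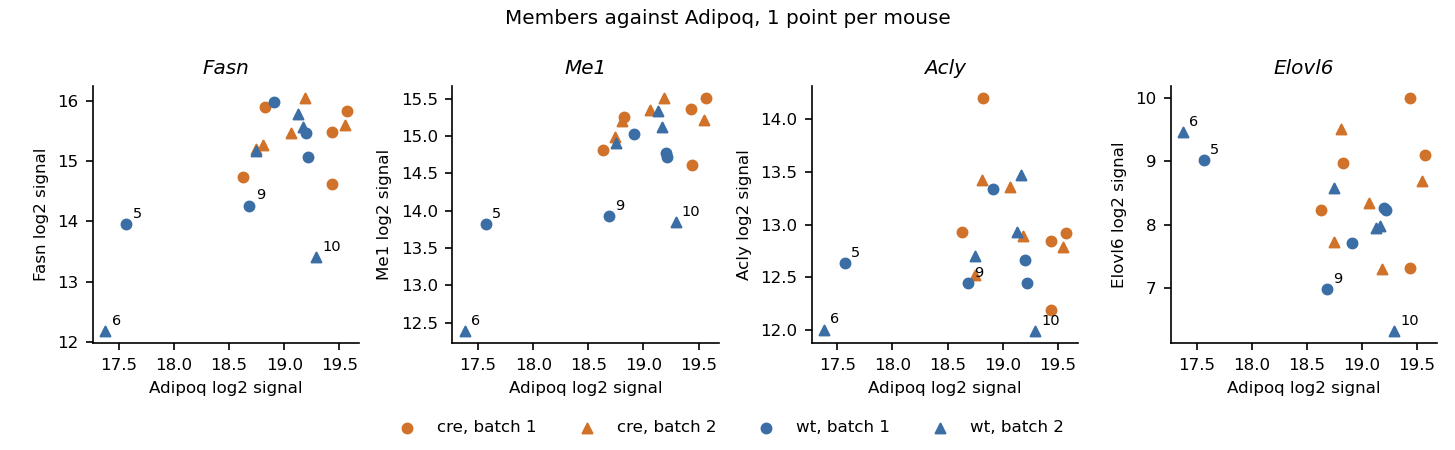
Log2 signals of Fasn, Me1, Acly and Elovl6 (y axes) against that of Adipoq (x axis), 1 point per mouse, with colour for genotype and shape for batch. The wt replicates 5 and 6 lie apart at Adipoq signals of 17.57 and 17.38, while replicates 9 and 10, at 18.68 and 19.29, lie within the range of the cre mice in Adipoq but below it in Fasn and Me1.

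The 4 low wt mice differed in their fat cell markers. In replicates 5 and 6 Adipoq, Plin1 (the perilipin that coats fat droplets) and the mean of 12 adipocyte genes all lay below every cre mouse. Replicate 6 was also the mouse with a seminal vesicle list mean of 16.95. In replicates 9 and 10 Adipoq was 18.68 and 19.29, above the lowest cre mouse at 18.63, and the adipocyte mean was 15.96 and 16.38, above the lowest cre mouse at 15.84. In these 2 mice the signals of Fasn were 14.26 and 13.41, of Me1 13.93 and 13.85, of Acss2 10.02 and 9.72, of Acaca 10.23 and 10.49 and of Elovl6 6.99 and 6.32, all below the lowest cre mouse. Over the 8 members, replicate 6 was below every cre mouse in 7, replicate 10 in 6 and replicates 5 and 9 in 5 each. Replicate 7 was so in 1, and the other 5 wt mice in 0. Replicates 5, 6, 9 and 10 were picked by these same members, and the same count over all probe sets is not given here.

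Other cell types varied between the same mice. Of 14 macrophage genes 13 were lower in cre mice, with a median difference of -0.37 and 3 with an unadjusted p under 0.05 in limma. Of all 22206 probe sets 10943 were lower in cre mice, 677 of them with such a p. Their mean per mouse lay between 10.42 and 13.03 in cre mice, and wt replicates 5, 9 and 2 lay above that range, at 13.85, 13.42 and 13.23. Of 8 mesothelial genes, which mark the lining of visceral fat, 7 were lower in cre mice, with a median of -0.45. Their mean in wt replicates 3, 5, 6 and 10, at 8.68 to 8.88, lay above the highest cre mouse at 8.54. With the macrophage mean as a covariate the median difference of the members was 0.60, with 3 members in the study's selection. The mean of 10 liver genes averaged 8.97 ± 2.40 (SD, n = 10) among wt mice against 10.37 ± 1.78 (SD, n = 10) among cre mice, and the liver too makes fatty acids. With the liver mean as a covariate the median difference of the members was 0.59, and in replicate 6 the liver mean was the lowest of all mice, at 6.38. Summed on the linear scale and taken to log2, the liver list ranged from 10.70 to 19.57 in wt and from 12.87 to 18.80 in cre mice, and the macrophage list from 17.07 to 18.92 and from 15.30 to 18.16. None of the 14 macrophage or 10 liver genes had a mean below the array median. The part of these cell types in the members' differences was not tested beyond these covariates, and for mesothelium it was not tested.

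**Figure D4:**
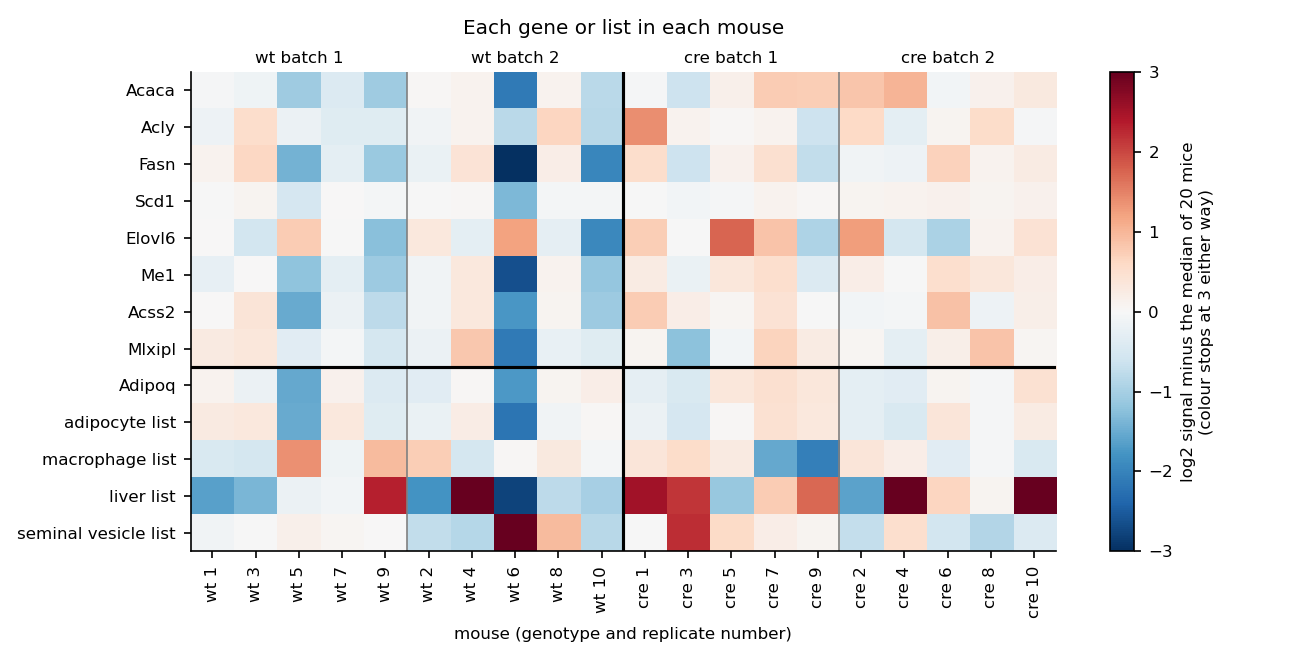
Deviation of each lipogenesis gene, of Adipoq and of 4 marker lists from its median over 20 mice (colour, log2 units, with colour stopping at 3 either way), with mice in columns by genotype and batch. The wt replicates 5, 6, 9 and 10 are below the median in Acaca, Fasn, Me1 and Acss2, whereas Adipoq and the adipocyte list are far below it only in replicates 5 and 6.

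Among themselves, the members other than Elovl6 varied in the same direction over all 20 mice. Elovl6 was set apart by its values in these same data, and the share of such pairs among other probe sets is not given here. Over 28 pairs, correlations of deviations across 20 mice ran from -0.47 to 0.97 with a median of 0.64. All 21 pairs without Elovl6 were above 0, whereas 1 of the 7 pairs with Elovl6 was, that with Acly. Without wt replicates 5 and 6 all 28 pairs were above 0, with a median of 0.54, but the median of the 21 pairs without Elovl6 fell from 0.74 to 0.57. By Pearson's r, 18 of those 21 pairs passed adjustment over the 28 pairs, and 5 did without those 2 mice. Within wt mice all 21 of these pairs were above 0, whereas within cre mice 16 were above and 5 below 0: Acaca with Acly, Fasn, Me1 and Acss2, and Acly with Scd1. Fasn and Me1 were the closest pair, with r = 0.97 and rho = 0.95 (permutation p = 1e-05 and 2e-05, where 1e-05 is the smallest that 100000 resamples give). That value was 0.96 in batch 1, 0.98 in batch 2, 0.98 in wt and 0.91 in cre mice, and 0.95 without the 2 mice farthest from the median of Fasn, wt replicates 6 and 10. Fasn and Acss2 gave r = 0.93 and rho = 0.93 (permutation p = 1e-05 for both), with 0.90 and 0.96 in the batches, 0.97 in wt and 0.76 in cre mice, and 0.89 without those 2 mice. The promoters of these 3 genes are printed above. Acaca and Fasn gave r = 0.71 and rho = 0.59 (permutation p = 0.00707 and 0.0250) over all mice, with 0.58 and 0.77 in the batches and 0.44 without the 2 mice farthest on Acaca. For that pair r was 0.97 within wt and -0.15 within cre mice, and the difference between genotypes was not tested.

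Of genes outside the list, the 5 whose deviations were most like the mean of the standardised members over 20 mice were Cavin3, Map6, Pnpla3, Gm5627 and Dgat2, with r from 0.91 to 0.93. Dgat2 makes triglyceride from diacylglycerol, Pnpla3 encodes a lipid droplet protein, Cavin3 a protein of caveolae and Map6 a microtubule-associated protein. Without wt replicates 5 and 6 the same 5 genes gave r from 0.79 to 0.89. Adipoq gave r = 0.64 over 20 mice, with 610 of 19564 probe sets more alike, and 0.20 without those 2 mice. These values describe likeness across these mice only.

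Genes that supply or surround the pathway were read from 4 lists. Of 51 listed genes 46 had a probe set, 29 higher and 17 lower in cre mice, with a median difference of 0.12, and 9 had an unadjusted p under 0.05 with a higher cre level (3.24% of all probe sets) while 0 had one with a lower level. None passed adjustment, as 0.0045% of probe sets did. In the supply of citrate, 11 of 13 measured genes were higher, with a median of 0.30. They included the pyruvate dehydrogenase subunits Pdhb (0.53, SE 0.16, limma adjusted p = 0.770), Dlat (0.49, SE 0.17, limma adjusted p = 0.770) and Pdha1 (0.43, SE 0.17, limma adjusted p = 0.770), and Mpc1 (0.39, SE 0.19, limma adjusted p = 0.789) of the mitochondrial pyruvate carrier. The Pdhb signal ran from 12.40 to 13.96 in wt and from 13.39 to 13.95 in cre mice, so that again the groups shared their upper end. Of 4 measured genes of NADPH supply, Idh1 (0.42, SE 0.15), the cytosolic isocitrate dehydrogenase, and Mthfd1 (0.33, SE 0.15) of folate metabolism had an unadjusted p under 0.05.

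The 14 other enzymes of chain making and desaturation showed no common direction, with 7 higher and 7 lower and a median of 0.0045. Hsd17b12, which carries out the first of the reduction steps of elongation, was the only one with an unadjusted p under 0.05 (0.47, SE 0.15, limma adjusted p = 0.770). Of 15 measured regulators 8 were higher and 7 lower, with a median of 0.01. Insig1, which holds SREBP in the endoplasmic reticulum and is itself an SREBP target, differed by 0.76 (SE 0.33, limma adjusted p = 0.781), and Insig2 by 0.38 (SE 0.17, limma adjusted p = 0.781). At equal Adipoq 24 of the 46 genes were higher and 22 lower in cre mice, with a median of 0.04. An unadjusted p under 0.05 in limma was then met by 3 genes with a higher and 2 with a lower cre level, and 0 passed adjustment. Over the 22205 probe sets fitted, 490 met it with a higher and 674 with a lower cre level. The higher ones were Pdha1 (0.40, SE 0.18), Pdhb (0.36, SE 0.14) and Hsd17b12 (0.36, SE 0.15). The lower ones, Nr1h3 and Slc2a4, were named after their values were seen. Nr1h3 (-0.50, SE 0.16) encodes the nuclear receptor LXRα, an activator of Srebf1. Slc2a4 (-0.53, SE 0.21) encodes the glucose transporter GLUT4. Without Adipoq in the model Nr1h3 differed by -0.34 and Slc2a4 by 0.0062. The Insig1 difference was 0.49 at equal Adipoq (limma unadjusted p = 0.139).

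**Figure D5:**
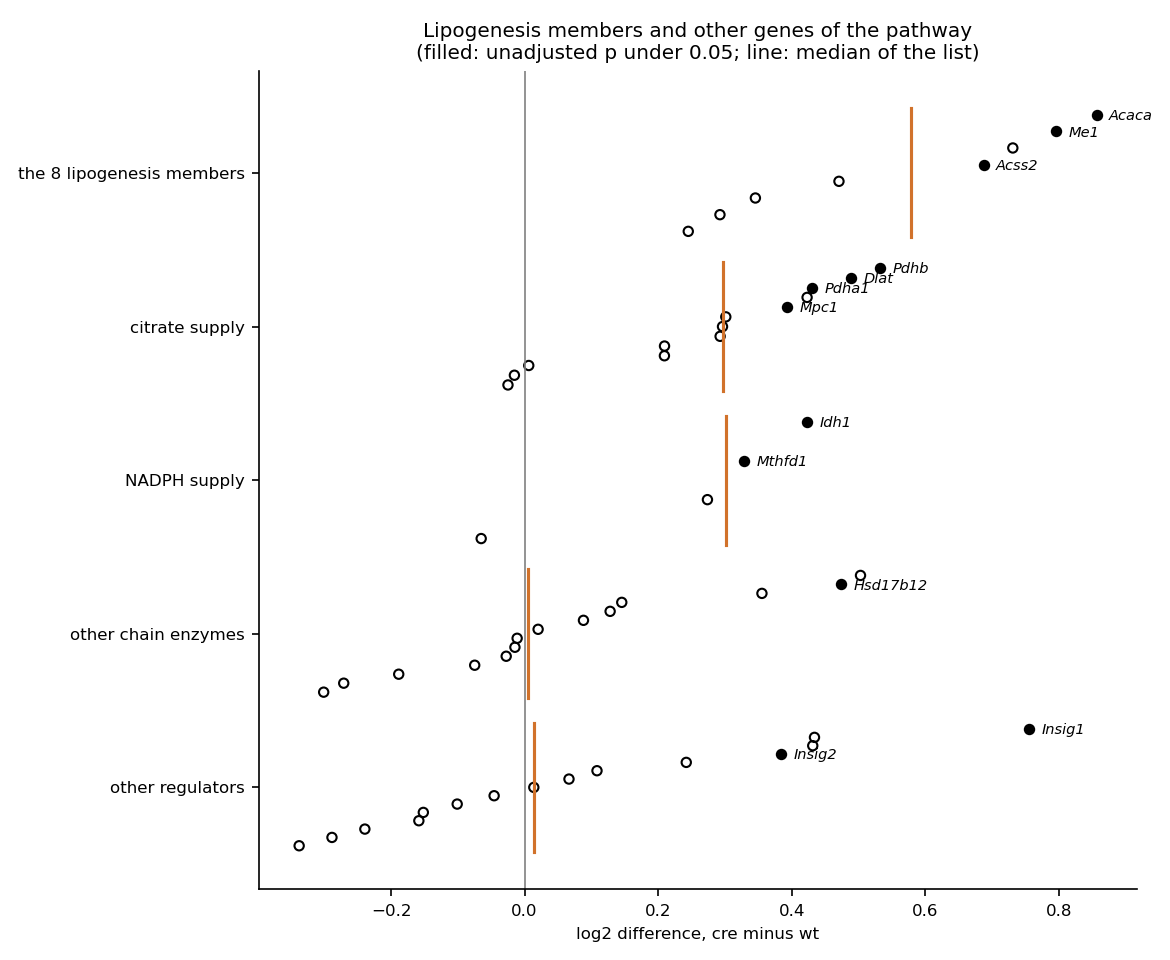
Log2 difference, cre minus wt, over 20 mice (x axis) of the 8 lipogenesis genes and of each measured gene of 4 lists around the pathway (y axis), with the median of each list as a line. Filled points had an unadjusted p under 0.05 in limma, all of them on the higher side, and the medians fall from 0.58 for the members to 0.30, 0.30, 0.0045 and 0.01 for the lists.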

How the data were processed

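Total RNA of the fat pads was amplified and labelled with the WT PLUS reagents for expression arrays, per the labels' protocols. For each of 20 arrays the authors deposited the log2 signals of 22206 probe sets. RMA, Transcriptome Analysis Console 4.0.2.15 and the mm10 build are named in the submitters' processing notes, and further settings are not given in the sources used here. Groups, batches and replicate numbers came from the sample titles, which call the mice biological replicates. The number of mice limits the precision.

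Gene names came from the platform annotation, in which 19572 probe sets had 1 symbol, 0 several and 2634 none here. All 19572 matched RefSeq's table by gene number. Signals were fitted with limma 3.58.1 in R 4.3.3 (fixed terms for genotype and batch, untrended eBayes), with and without Adipoq as a covariate. All probe sets entered the Benjamini-Hochberg adjustment, at a threshold of 0.05, and the fit was tested on simulated data. Single members were also permuted over all 63504 regroupings within batches. Correlations used 100000 permutations within genotype and batch. Python 3.11.15, NumPy 2.4.6, SciPy 1.17.1, pandas 2.3.3 and matplotlib 3.10.9 were used.

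The members, gene lists, tests and alternatives were chosen with earlier results of these data known. Named were all members, Adipoq, Tnf and Lyz2, from each pathway list up to 5 genes with an unadjusted p under 0.05, and the 5 genes most like the members. Lyz2, the gene that carries Cre, was lower in cre mice by a log2 difference of -1.55 (limma adjusted p = 0.176). Alternatives were each batch alone, no batch term, another eBayes prior, a filter on the 7402 dimmest probe sets, renormalisation, centring, array weights, the replicate number as a block, other covariates, the study's selection and leaving out mice. Replicate numbers were checked for pairing: deviations of same-numbered mice over 2000 probe sets correlated from -0.51 to 0.45, with no common direction. Mice of different numbers were not compared in this way, so the check cannot exclude a pairing.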

Additional observations from a re-analysis of the deposited data

Results flagged for a closer look

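Of 40 sets of 10 mice examined, 8 held a mouse far from the others of its genotype by Dixon's criterion. The criterion is met by chance in about 1 in 20 single sets. These sets share mice and genes, so the number to be met by chance among them was not estimated. In 4 members that mouse was wt replicate 6: its Acaca signal was 9.17 (nearest other wt mouse 10.23), its Scd1 signal 18.32 (nearest 19.17), its Me1 signal 12.38 (nearest 13.82) and its Mlxipl signal 6.63 (nearest 8.22). The same mouse had a seminal vesicle list mean of 16.95 (nearest 5.98). Its Elovl6 signal, at 9.46, was the highest of the wt mice. Among cre mice the seminal vesicle list stood apart in replicate 3, at 7.22 (nearest 5.59), and the brown adipocyte list in replicate 2, at 8.19 (nearest 7.07). The exocrine pancreas list stood apart in wt replicate 4, at 7.76 (nearest 5.88). What these mice have in common beyond these values was not tested.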

How the results depend on the processing

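No alternative brought a member past adjustment, and all members except Mlxipl kept a higher cre mean in every alternative without Adipoq. The Mlxipl difference was -0.0014 in batch 1 alone. At equal Adipoq, Scd1 was at -0.020 in batch 1 alone, and Mlxipl was at 0.25 in batch 2 alone. With the adipocyte list as the covariate Mlxipl was at 0.037, and with Plin1 at 0.062. Mlxipl was at 0.28 without the 3 mice flagged for other tissue, and between -0.13 and 0.12 with single mice left out. By the study's selection 3 members passed in place of 0. That number was 1 in batch 2 alone and 1 to 4 with single mice left out, the lowest without wt replicate 6. At equal Adipoq it was 0 in the chosen fit and 1 with array weights, the adipocyte list or Plin1. It was 2 without the 3 flagged mice, and 0 to 2 with single mice left out. Of the 8 correlations with Adipoq, 6 passed after adjustment over the 8 relations by Pearson's r and 1 by Spearman's rho, 0 without the 2 mice farthest in Adipoq, and 0 to 6 with single mice left out, 0 without wt replicate 5 and 0 without wt replicate 6. With the replicate number as a block, which the pairing check did not bear out, 0 members passed in either fit, their median difference was 0.58 and at equal Adipoq 0.31, 242 probe sets passed the study's selection and 0 passed adjustment. Over all probe sets 1 passed adjustment, against 0 in each batch alone and 2 with the macrophage covariate. The number was 2 without the 3 flagged mice and 1 to 2 with single mice left out. The study's selection held 232 probe sets, 156 with array weights, 946 in batch 1 alone and 568 in batch 2 alone. It held 494 without the 3 flagged mice and 180 to 451 with single mice left out. The cause of these shifts was not tested. The mean of all probe sets of a gene could not differ, since each member had 1. Signals near the array maximum limit Scd1 and may limit the covariate Adipoq, and low signals are compressed by background.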

Other observations

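The likeness of other genes to the mean of the standardised members was computed again without wt replicates 5 and 6, a choice made after the values were seen. The 5 genes with the highest r over 18 mice were Map6 (0.89), Nnmt (0.88), Pnpla3 (0.88), Cd320 (0.88) and Cavin3 (0.86), of which Map6, Pnpla3 and Cavin3 were also among the 5 over 20 mice. Nnmt encodes nicotinamide N-methyltransferase, an enzyme known from fat and liver, and Cd320 the receptor for transcobalamin.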
